A study of Triticum aestivum with 12 samples.

Results

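VRN1 is the vernalization gene of wheat, and its 3 homoeologs VRN-A1, VRN-B1 and VRN-D1 lie on chromosomes 5A, 5B and 5D. They were taken by identifier as TraesCS5A01G391700, TraesCS5B01G396600 and TraesCS5D01G401500, which are 3 of the 128497 gene models in the table. All 3 passed the filter on low counts, and each did so through the acclimated groups alone. The data are RNA sequencing counts from 12 libraries of the wheat cultivar Jing411, with 3 biological replicates in each of 4 groups. LTAF plants had 28 days of acclimation at 4 °C followed by 24 hours of freezing at -5 °C. NTGF plants had the same freezing after 28 days at 20 °C without acclimation. LTA plants had the 28 days at 4 °C with no freezing, and NTG plants had only the 28 days at 20 °C. All groups are of this 1 cultivar. The sources used here do not give plant age, day length or other growth conditions. The effect of 28 days at 4 °C cannot be told apart from that of slower growth or another stage. By these schedules the frozen groups had 24 hours more than the unfrozen ones. The effect of freezing therefore cannot be told apart from that of the added time. The labels' extraction protocol names the crown, the stem base that holds the shoot apex, while their tissue field reads SEEDING. The identifiers carry no gene names, so crown markers were not checked.

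VRN1 encodes a MADS-box transcription factor of the APETALA1 and FRUITFULL group. In winter wheat it is known to be nearly silent before winter and to come on during weeks of cold, after which it promotes the change of the shoot apex from leaf to spike formation. In leaves it opposes VRN2, a repressor of flowering that holds down the flowering signal VRN3. Jing411 is a winter wheat, and VRN1 has also been linked to the time at which winter cereals lose their capacity for frost tolerance.

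Total counts per library ran from 17871036 to 21491305. LTAF replicate 2 stood somewhat apart, with rank correlations across genes of 0.935 and 0.927 with LTAF replicates 1 and 3, which reached 0.948 with each other. The NTGF replicates reached 0.931 to 0.937, the LTA replicates 0.95 to 0.954 and the NTG replicates 0.955 to 0.959. Within groups no pair of libraries was a duplicate, since even the closest pair differed in 94353 models. Levels below are CPM, counts scaled to a common library size after TMM normalization. The 3 copies are near-identical in sequence, and the sources do not say how reads that match several copies were treated, so the sum over the 3 is given beside each of them. In bulk RNA, more cells that express a gene and more RNA per cell cannot be told apart.

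VRN1 was present in every library of acclimated plants and nearly absent from every library of unacclimated plants. VRN-A1 had 23.7, 26.1 and 25.3 CPM in LTAF libraries and 0.511, 0.160 and 0.845 CPM in NTGF libraries. It had 16.3, 19.6 and 15.7 CPM in LTA libraries and 0.115, 0.0766 and 0.188 CPM in NTG libraries. The acclimated libraries all lay far above the unacclimated ones, and the NTGF and NTG ranges overlapped. VRN-B1 had 5.59, 7.47 and 8.77 CPM in LTAF and 4.67, 4.39 and 4.93 CPM in LTA. In NTGF its 2 counts lay in replicate 2, at 0.106 CPM, and NTG held no count. VRN-D1 had 3.25, 4.39 and 3.54 CPM in LTAF and 1.92, 1.90 and 2.73 CPM in LTA, with no count in the 6 libraries of NTGF and NTG. A count of 0 over a group allows up to 3 counts, which is 0.0535 CPM in NTGF and 0.0409 CPM in NTG. Reads carry no molecular identifiers, so such limits and the counting intervals below cover counting error only.

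**Figure D1:**
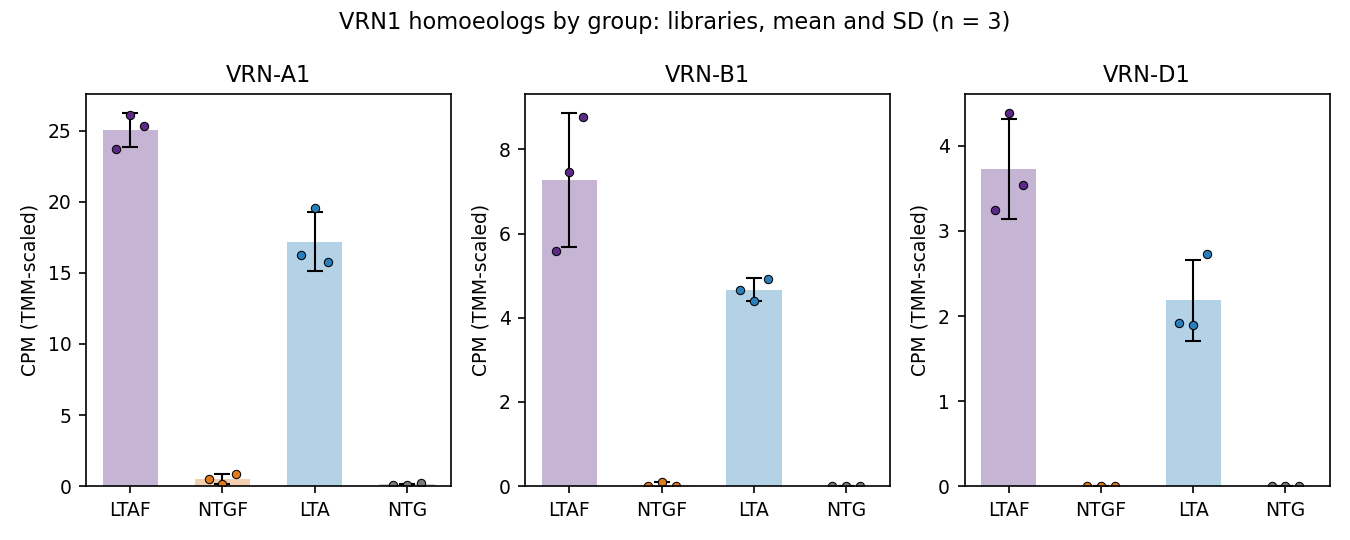
Level of each VRN1 homoeolog in CPM (counts scaled to a common library size with TMM; linear axes that differ between panels) in LTAF, NTGF, LTA and NTG. Points are libraries, bars are means and error bars are SDs (n = 3); in each panel all 6 libraries of LTAF and LTA lie above all 6 of NTGF and NTG, which sit at or near 0.

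LTA against NTG asks what 28 days of acclimation changed before any freezing. All 3 homoeologs rose in LTA, where edgeR called 20% of all tested models higher. VRN-A1 averaged 17.2 ± 2.08 CPM in LTA and 0.127 ± 0.0567 CPM in NTG (SD, n = 3). Its log2 fold change was 7.05 ± 0.40 (SE; edgeR quasi-likelihood test, Benjamini-Hochberg adjusted p = 9.83e-07), a fitted fold of 133 with a 95% interval of 72.4 to 244. Of the 69693 models tested, 130 had a larger fitted rise. VRN-B1 held 267 counts in LTA and 0 in NTG, at least 114-fold higher when the NTG group as a whole is set to a floor of 3 counts (adjusted p = 9.69e-06 by edgeR). VRN-D1 held 125 counts in LTA and 0 in NTG, at least 53.4-fold higher (edgeR adjusted p = 3.08e-05). These bounds depend on depth: without NTG replicate 1 or 2 they fell by more than 1.5 times, and over all single libraries of LTA and NTG left out they were at least 73.5 for VRN-B1 and at least 34.4 for VRN-D1. The sum averaged 24.0 ± 1.60 CPM in LTA and 0.127 ± 0.0567 CPM in NTG, with a fitted fold of 186 (111 to 310; edgeR adjusted p = 2.14e-07). The calls for the 3 homoeologs and the sum held in every alternative run. With library totals as the scaling, the median of all models fell by 0.34 on the log2 scale, which is small beside these changes.

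**Figure D2:**
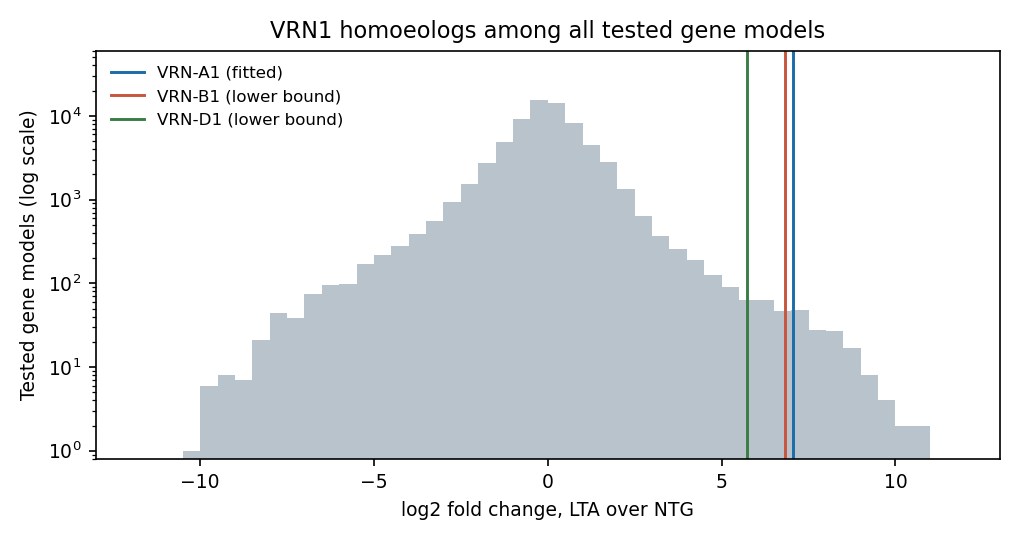
Distribution of the fitted log2 fold change of LTA over NTG across the 69693 tested gene models (grey bars, log scale), with the VRN1 homoeologs as vertical lines. VRN-A1 is at its fitted value of 7.05; VRN-B1 and VRN-D1, without a count in NTG, are at lower bounds of 6.83 and 5.74, in the far right tail.

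LTAF against NTGF asks the same of frozen plants. All 3 homoeologs were again higher in LTAF, where 20.2% of tested models were called higher. VRN-A1 averaged 25.0 ± 1.22 CPM in LTAF and 0.505 ± 0.343 CPM in NTGF, a fitted fold of 49.4 (29.2 to 83.6; edgeR adjusted p = 2.62e-06). VRN-B1 held 370 counts in LTAF and 2 in NTGF, which per depth was 203 times as many (95% counting interval 55.8 to 1682; adjusted p = 1.93e-05 by edgeR). Both of those NTGF counts lay in replicate 2. Without it the value became a bound of at least 90.0-fold, and without NTGF replicate 1 the ratio was 132. VRN-D1 held 191 counts in LTAF and 0 in NTGF, a rise of at least 69.8-fold (adjusted p = 4.56e-05 by edgeR). That bound was 45.5-fold without NTGF replicate 1 and 46.4-fold without NTGF replicate 2. The sum was 66.4-fold higher (42.6 to 104; edgeR adjusted p = 5.37e-07).

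The remaining pairs place the groups in order. LTAF against NTG combines both treatments, with 23.5% of tested models called higher. VRN-A1 was 193-fold higher in LTAF than in NTG (105 to 356; edgeR adjusted p = 5.18e-07). VRN-B1 was at least 177-fold higher and VRN-D1 at least 91.3-fold higher (edgeR adjusted p = 6.87e-06 and 1.96e-05). Without NTG replicate 1 or 2 these bounds also fell by more than 1.5 times, to no less than 114 and 58.9. NTGF against LTA sets a day of freezing beside 28 days of chilling, and 20.3% of tested models were called lower in NTGF. VRN-A1 was lower in NTGF, with a log2 fold change of -5.08 ± 0.35 (SE; edgeR adjusted p = 3.06e-06), and so was the sum, at -5.47 ± 0.29 (edgeR adjusted p = 5.89e-07). VRN-B1 was lower too, with 2 counts in NTGF and 267 in LTA, as was VRN-D1, with 0 counts in NTGF and 125 in LTA (edgeR adjusted p = 2.38e-05 and 5.93e-05). VRN1 after a day at -5 °C without acclimation was far below its level after 28 days at 4 °C. The order of VRN-A1 levels was LTAF, LTA, NTGF, NTG from high to low. The step between LTA and NTGF was called in every alternative run, and the step between NTGF and NTG was called in most. The step between LTAF and LTA was called only in the fit of these groups alone.

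NTGF against NTG asks what freezing did without acclimation, where the whole question rests on few reads. VRN-A1 had 10, 3 and 15 counts in NTGF libraries and 3, 2 and 4 counts in NTG libraries. NTGF replicate 2 lay within the NTG range, and NTGF replicates 1 and 3 lay above it. VRN-A1 averaged 0.505 ± 0.343 CPM in NTGF and 0.127 ± 0.0567 CPM in NTG and was called higher, with a log2 fold change of 1.97 ± 0.51 (edgeR adjusted p = 0.0157). In this comparison 14.2% of tested models were called higher. VRN-A1 and the sum were tested here only because LTAF and LTA carried them past the filter on low counts: with NTGF and NTG alone both were filtered out and had no test. The ratio of summed counts per depth was 4.07, with a counting interval of 1.87 to 9.80. The call was lost without NTG replicate 1 (edgeR adjusted p = 0.0528), without NTG replicate 2 (adjusted p = 0.0645) and without NTGF replicate 3 (adjusted p = 0.0657). The adjusted p ranged from 0.00206 to 0.167 over the alternatives. The sum had a log2 fold change of 2.07 ± 0.42 (edgeR adjusted p = 0.00493) and remained called without any single library. In these groups the sum differs from VRN-A1 only by the 2 VRN-B1 counts in NTGF replicate 2, so it is not a separate result. VRN-B1, with 2 counts in NTGF and 0 in NTG, and VRN-D1, with 0 in both, stayed at or under the floor, so no fold is given. Even the highest NTGF library, at 0.845 CPM for the sum, lay far under the lowest LTA library, at 22.9 CPM.

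**Figure D3:**
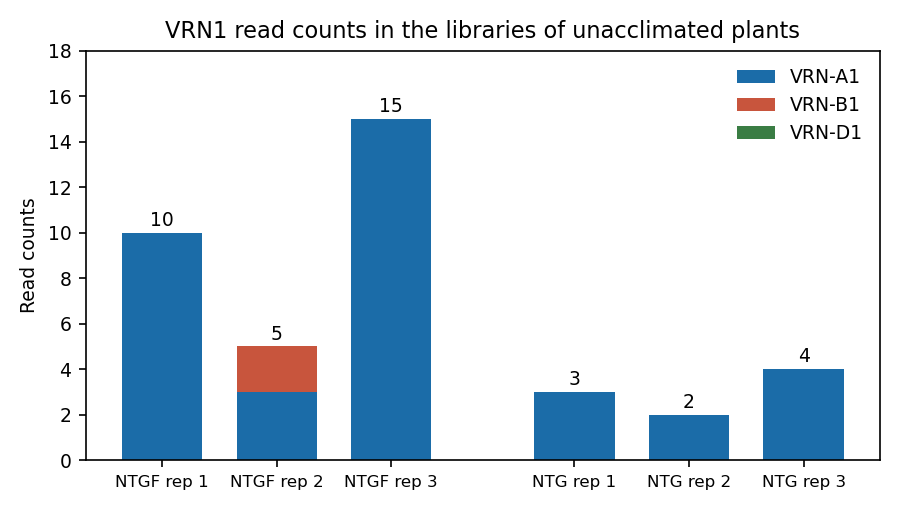
Raw read counts assigned to VRN1 in each NTGF and NTG library, stacked by homoeolog, with the total above each bar. NTGF libraries hold 10, 5 and 15 counts and NTG libraries 3, 2 and 4; nearly all are VRN-A1, 2 are VRN-B1 (NTGF replicate 2) and none is VRN-D1.

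LTAF against LTA asks whether freezing changed VRN1 once acclimation had raised it. The sum had 32.6, 38.0 and 37.6 CPM in LTAF libraries and 22.9, 25.9 and 23.4 CPM in LTA libraries. Every LTAF library lay above every LTA library, for the sum and for each of the 3 homoeologs. Of all tested models, 13.8% were higher in LTAF with no overlap between the groups. The fitted fold was 1.46 for VRN-A1 (95% interval 0.984 to 2.15), 1.56 for VRN-B1 (0.964 to 2.52) and 1.71 for VRN-D1 (1.09 to 2.68). None of the 3 was called by edgeR, with adjusted p values of 0.260, 0.279 and 0.168, in a comparison that called 3.99% of tested models higher. VRN-D1 alone had an unadjusted p under 0.05, at 0.0259 by edgeR. The sum was 1.5-fold higher (1.08 to 2.08), with an unadjusted edgeR p of 0.0196 and an adjusted p of 0.143. The sum was called in 3 of 22 alternative runs and not in the other 19. With single libraries left out its edgeR adjusted p ran from 0.0564 to 0.343. DESeq2 called 4287 of 69693 tested models higher, where edgeR called 2783. DESeq2 called the sum (adjusted p = 0.0135) and 0 of the 3 homoeologs. limma-voom, which called 2313 models higher, called the sum (adjusted p = 0.0433) and VRN-D1 (adjusted p = 0.0479). edgeR on LTAF and LTA alone, which called 3807 of 61154 models higher, called the sum (adjusted p = 0.0263) and VRN-A1 (adjusted p = 0.0427). Without LTAF replicate 2 the log2 fold change of the sum was 0.51 (edgeR adjusted p = 0.170), against 0.58 with it.

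The interaction compares the freezing response of acclimated plants with that of unacclimated plants, which came to -5 °C from 4 °C and from 20 °C. On the log2 scale VRN-A1 changed by 0.54 ± 0.26 in LTAF against LTA and by 1.97 ± 0.51 in NTGF against NTG. The difference was -1.43 ± 0.57 (SE; edgeR adjusted p = 0.126), where 11% of tested models were called in either direction. For the sum it was -1.48 ± 0.48 (edgeR adjusted p = 0.0642). Neither was called with all libraries, and both were called without NTGF replicate 2 (edgeR adjusted p = 0.0262 for VRN-A1 and 0.0254 for the sum). For VRN-A1 the unacclimated side rests on 28 counts in NTGF and 9 in NTG, tested only because LTAF and LTA passed the filter. The sign belongs to the log2 scale. In CPM the sum averaged 36.0 in LTAF and 24.0 in LTA, and 0.541 in NTGF and 0.127 in NTG. On that scale the larger rise was in acclimated plants. No interaction is given for VRN-B1 and VRN-D1, whose NTGF and NTG counts were at or under the floor.

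The 3 homoeologs held similar mean shares of the VRN1 reads in LTAF and LTA. Libraries of a group differed, with VRN-A1 at 75.7% in LTA replicate 2 and 67.3% in LTA replicate 3. VRN-A1 held 69.6% ± 2.89 of the summed counts in LTAF and 71.4% ± 4.21 in LTA (SD, n = 3). VRN-B1 held 20.0% ± 3.09 in LTAF and 19.5% ± 2.20 in LTA. VRN-D1 held 10.3% ± 1.11 in LTAF and 9.14% ± 2.25 in LTA. The LTAF minus LTA differences, of -1.73, 0.55 and 1.19 percentage points, were within the spread of the replicates (exact two-sided permutation p = 0.7, 0.9 and 0.5, where 3 against 3 libraries cannot go below 0.1). These are shares of reads. No gene lengths of these models were given, and reads may move between near-identical copies, so the shares do not rank the copies by level per length.

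**Figure D4:**
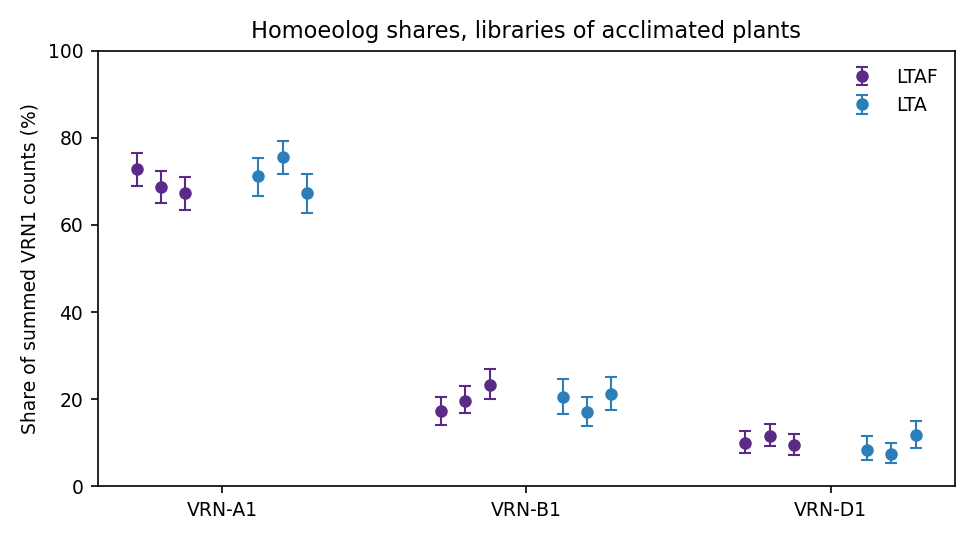
Share of the summed VRN1 read counts held by each homoeolog in the 3 LTAF and the 3 LTA libraries; points are libraries and error bars are 95% exact (Clopper-Pearson) binomial intervals, which cover counting error only. VRN-A1 lies between 67.3% and 75.7%, VRN-B1 between 17.0% and 23.3% and VRN-D1 between 7.34% and 11.7%, with LTAF and LTA overlapping for each.

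In unacclimated plants the few reads fell on VRN-A1. Over the 6 NTGF and NTG libraries VRN-A1 had 37 of 39 counts, or 94.9% (95% exact Clopper-Pearson interval 82.7% to 99.4%), against 2269 of 3222, or 70.4% (68.8% to 72.0%), over the 6 LTAF and LTA libraries. At the acclimated proportions, 37 VRN-A1 counts would go with 10.4 VRN-B1 and 5.15 VRN-D1 counts, and 2 and 0 were found. Averaged over libraries, the VRN-A1 share was 70.5% in acclimated and 93.3% in unacclimated libraries, a difference of -22.8 percentage points (exact two-sided permutation p = 0.02 within the frozen and the unfrozen libraries, adjusted p = 0.06 over 6 share tests). VRN-B1 differed by 13.1 points (19.8% and 6.67%; exact permutation p = 0.09, adjusted p = 0.18). VRN-D1 differed by 9.73 points (9.73% and 0%; exact permutation p = 0.005, the smallest these permutations can give, adjusted p = 0.03). That p is not read as a difference in share, since a library of 2 to 15 counts can read 0% at a share near 10%. The 0 of 39 counts had an upper 95% limit of 9.03%. That lies under the 9.81% of acclimated libraries but within the interval of 8.80% to 10.9% around it. On the log odds scale the VRN-D1 permutation test had an adjusted p of 0.66. A fraction of a count was added there. With no VRN-D1 count in unacclimated libraries, it and their summed VRN1 counts set the values, so that test cannot decide. Whether the VRN-D1 share differed is not settled at this depth. Without NTGF replicate 2, which held both VRN-B1 counts, the VRN-A1 and VRN-B1 differences were -29.5 and 19.8 points, each with an exact permutation adjusted p of 0.01, and the same limit of low counts holds for these. No difference in share was called between frozen and unfrozen libraries (exact permutation adjusted p = 0.5 for each of the 3).

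The coefficient of variation between replicates can be set beside the part that counting error alone gives. In LTAF it was 4.86% for VRN-A1, where counting alone gives 4.84%. It was 22.0% for VRN-B1 and 15.9% for VRN-D1 there, beside 9.0% and 12.5% from counting. In LTA it was 12.1%, 5.78% and 21.7% for VRN-A1, VRN-B1 and VRN-D1, beside 5.51%, 10.6% and 15.5% from counting. With 3 libraries each such value is itself imprecise.

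Few models met thresholds on raw counts that were set at the VRN1 values. The lowest count of any homoeolog in an acclimated library was 35, for VRN-D1 in LTA replicate 1. At least 35 counts in all 6 LTAF and LTA libraries were found for 35998 models of the table. Of these, 2 had no count in the 6 NTGF and NTG libraries, 1 of them VRN-D1. Another threshold, at most the 2 counts of VRN-B1 there, left 7 models, and at most the 37 counts of VRN-A1 left 83, with the VRN1 homoeologs included. These thresholds were read from the VRN1 values and the counts are descriptions. A model with more counts in unacclimated plants is left out whatever its fold change.

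Among 48010 high-confidence models with a mean of at least 1 CPM, the pattern most like the VRN1 sum over the 12 libraries was that of TraesCS2B01G447500, with a Pearson correlation of log2 CPM of 0.996. It averaged 1161 ± 242 CPM in LTAF, 8.82 ± 8.08 in NTGF, 895 ± 66.7 in LTA and 1.69 ± 0.267 in NTG (SD, n = 3). TraesCS5A01G503900 followed, also at 0.996, with 1143 ± 253 CPM in LTAF, 24.0 ± 16.5 in NTGF, 773 ± 51.1 in LTA and 8.12 ± 2.47 in NTG. The means of both had the order LTAF, LTA, NTGF, NTG. The step between LTAF and LTA was called for neither (edgeR adjusted p = 0.705 and 0.449). The most opposite patterns were those of TraesCS3A01G408200, at -0.993, and TraesCS5B01G509600, at -0.990. TraesCS3A01G408200 averaged 7.65 ± 0.414 CPM in LTAF, 58.3 ± 8.02 in NTGF, 10.9 ± 0.709 in LTA and 92.8 ± 15.3 in NTG. TraesCS5B01G509600 averaged 24.5 ± 3.78 CPM in LTAF, 120.2 ± 20.5 in NTGF, 27.4 ± 2.68 in LTA and 148.3 ± 15.1 in NTG. The libraries fall into acclimated and unacclimated clusters that set most of such a correlation, and 742 models reached 0.95 or more. By Spearman's rho the first pair ranked 505 and 64. The correlations describe these libraries, and the files give these identifiers no names.

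No tested gene beside the VRN1 homoeologs reached their fold change in LTA against NTG. Of the 10 high-confidence models before and the 10 after each homoeolog in identifier order, 60 in all, 46 passed the filter. In LTA against NTG, 17 of these were called higher and 6 lower, which is 50% of the 46, where 38% of all tested models were called. Their log2 fold changes ran from -4.41 to 2.47 with a median of 0.03, all below that of VRN-A1 and the bounds of VRN-B1 and VRN-D1. The balance of directions turned with the scaling: with library totals 10 neighbours were called higher and 14 lower, with a median of -0.31. Within 5 models on each side 17 of 24 were called, or 70.8%. Within 20 on each side 24 of 90 were called higher and 21 lower, or 50% together, with a median of -0.07. Neighbours on 5A, 5B and 5D can be copies of one another, so they are not independent. In NTGF against NTG 9 neighbours were called higher and 6 lower (32.6%, where 25.8% of all tested models were called). This balance turned too, to 4 higher and 7 lower with library totals and to 4 higher and 5 lower in the fit of NTGF and NTG alone. In LTAF against LTA 2 were called higher and 0 lower (4.35%, where 5.91% were called). The shares over all tested models include low-confidence models, unlike the neighbours. A fit of the 57596 high-confidence models alone called 11950 higher and 11128 lower in LTA against NTG. It called 7269 higher and 5739 lower in NTGF against NTG, and 2263 higher and 1003 lower in LTAF against LTA.

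**Figure D5:**
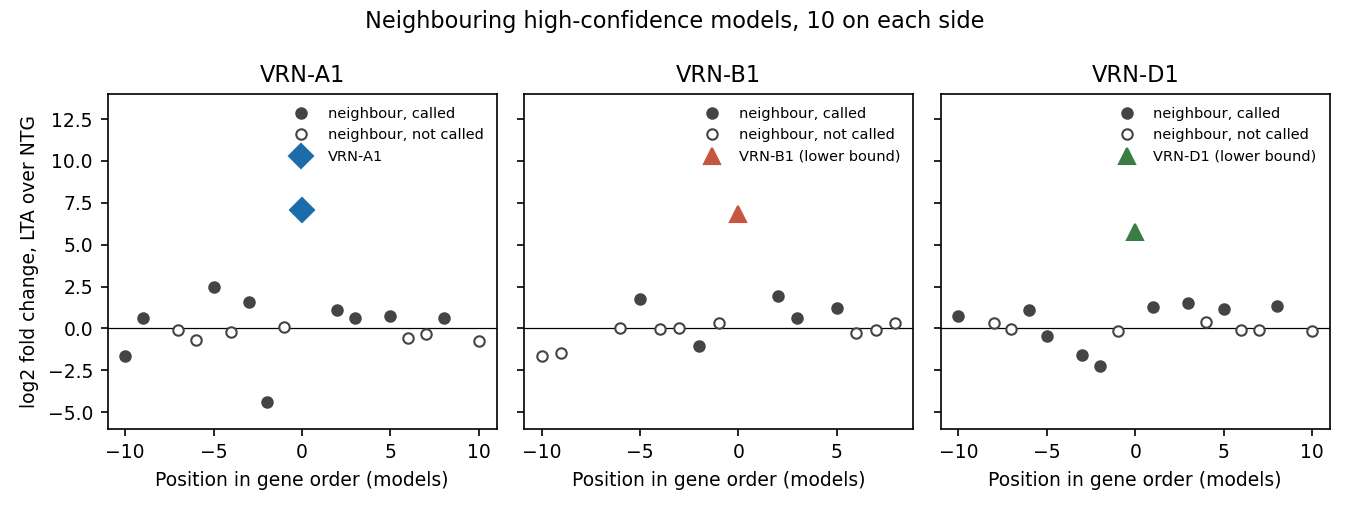
Fitted log2 fold change of LTA over NTG for the tested neighbours within 10 high-confidence models of each VRN1 homoeolog, by position in gene order; filled points were called (edgeR adjusted p under 0.05) and open points were not. The coloured symbol at position 0 is the homoeolog (fitted value for VRN-A1, lower bound for VRN-B1 and VRN-D1), above every neighbour, which run from -4.41 to 2.47.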

How the data were processed

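RNA from 12 libraries was sequenced on Illumina protocols, per the labels. The authors deposited raw read counts per gene model, with 1 column per library, per the file headers. Neither aligner and counter nor genome build and annotation are named in the sources used here. Columns were matched to libraries by name, and the 3 members by identifier. The members and lists were chosen with earlier results of these data known.

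Low counts were removed by filterByExpr with a minimum count of 10, leaving 69693 models, and the rest scaled with TMM. edgeR 4.0.16 (R 4.3.3) fitted all 12 libraries together, 1 coefficient per group, with robust quasi-likelihood F tests, Benjamini-Hochberg adjustment over all tested models and calls under 0.05. A second fit replaced the 3 homoeologs by their sum. The common biological coefficient of variation was 0.273. Where a group held no count, a floor of 3 counts over the group gave a bound. Log2 CPM used a prior count of 2. Named genes were the members, their sum, and the 2 models most and 2 least correlated with the sum. Differences in share had exact permutation tests (two-sided). The steps were tested on simulated counts. Alternatives included DESeq2 1.42.0, limma-voom (limma 3.58.1), other scalings and filters, the replicate number as a block, and leaving out each library. The reference table (RefSeq, IWGSC CS RefSeq v2.1) matched 0 identifiers, so the listed genes of the flowering pathway and the tissue markers were not analysed here.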

Additional observations from a re-analysis of the deposited data

How the results depend on the processing

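The calls of the 3 homoeologs and their sum in LTA against NTG, LTAF against NTGF, LTAF against NTG and NTGF against LTA kept their direction and their side of the threshold in every alternative run. For NTGF against NTG, limma-voom ended the VRN-A1 call (log2 fold change 1.68) and a test against a 2-fold change ended those of VRN-A1 (1.97) and the sum (2.07). Leaving out single libraries gave 1.42 to 2.40 for VRN-A1. For LTAF against LTA the sum was called by DESeq2 (0.59), limma-voom (0.58) and the fit of these groups alone (0.60), VRN-A1 by the last (0.56) and VRN-D1 by limma-voom (0.78). The interaction ran from -1.85 to -0.88 for VRN-A1 and from -1.83 to -1.04 for the sum. The share difference between acclimated and unacclimated libraries ran from -29.5 to -21.5 percentage points for VRN-A1 and from 11.8 to 19.8 for VRN-B1. In log odds that of VRN-D1 was 0.21 and no longer called, and the differences between frozen and unfrozen libraries turned to 0.13, -0.16 and -0.45 for VRN-A1, VRN-B1 and VRN-D1, the last running from -0.69 to 2.01 points when libraries were left out. None of these was called. A fraction of a count was added there, which weighs most where a library holds few counts.

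Same-numbered libraries did not in general deviate together (2 of 18 correlations over 0.1, from -0.44 to 0.20). Differently numbered libraries were not compared, so this check cannot tell whether the numbers mark a pairing. The replicate block changed no call described here for the homoeologs or the sum. With it, VRN-A1 in NTGF against NTG had a log2 fold change of 1.95 (edgeR adjusted p = 0.0333). The sum in LTAF against LTA had 0.58 (edgeR adjusted p = 0.220). Without LTAF replicate 2 and NTGF replicate 1, an alternative chosen after seeing the data, these were 1.93 (adjusted p = 0.0419) and 0.54 (adjusted p = 0.1). Counts over the whole table moved more. LTAF against LTA called 4121 models, 1430 to 8278 when single libraries were left out and 825 to 13385 under the others. The interaction called 7688, then 2346 to 12701 and 449 to 12460. NTGF against NTG called 18002, then 10948 to 20721 and 2812 to 21142. LTA against NTG called 26507 and as few as 7617 in the test against a 2-fold change. The share of higher calls was 52.5% in LTA against NTG and 54.9% in NTGF against NTG, and 29.1% and 23.9% with library totals. The fit of NTGF and NTG alone gave no value for VRN-A1 or the sum, since the filter removed them. Depth limits the folds of VRN-B1 and VRN-D1 against unacclimated plants to bounds, and that of VRN-B1 against NTGF to a ratio with a wide counting interval.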
